A study of Mus musculus with 8 samples.

Results

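The genes described here are 34 genes of sterol and fatty acid synthesis, chosen by name as enzymes of these routes and their regulators, of the 46078 genes counted in BV-2 cells. They were read in all 8 libraries and divided by role into a sterol arm (17 genes), a fatty acid arm (11 genes), and regulators with a sterol transport protein (6 genes). BV-2 is an immortalized line of mouse microglia, the resident macrophages of the brain. The study compared the response of these cells to lipopolysaccharide (LPS, a bacterial cell wall molecule that activates Toll-like receptor 4) with and without aged garlic extract (AGE) or FruArg, an Amadori compound of fructose and arginine found in that extract. All cells were first kept without serum for 4 hours. Control cells received solvent without LPS, and LPS cells received 100 ng/mL LPS for 20 hours. AGE+LPS cells received 0.5% (v/v) AGE and FruArg+LPS cells 3 mM FruArg, each added 1 hour ahead of LPS. The exposure time comes from the methods of the study, which name TRIzol for RNA extraction where the labels name an RNeasy kit.

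RNA-Seq libraries were made from poly-A RNA, with 2 libraries in each of the 4 groups. The control libraries held 2707500 and 8995052 counted reads (replicates 1 and 2) and the LPS libraries 8720784 and 12069807. Those of AGE+LPS held 6795464 and 6669072, and those of FruArg+LPS 4692715 and 5822113. Levels are CPM (reads of a gene per 1000000 counted reads) after TMM normalization over the 8 libraries, always given as replicate 1 and then replicate 2. A total of 3 counts, the most that a count of 0 allows, is 0.276 (LPS replicate 2) to 0.933 CPM (control replicate 1) on this scale, and this limit covers counting error only. By the labels, lane 3 holds replicate 1 of every group, and lane 6 holds replicate 2. The library names of replicate 2 also share a tag that those of replicate 1 lack. Lane therefore cannot be told apart from any other difference between the replicate sets. The series describes the replicates as biological, and nothing says whether they came from separate cultures. If they did not, the p-values measure only the spread between these libraries, which may be technical. In a bulk sample, fewer cells of a type and less RNA per cell cannot be told apart.

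A gene was said to have risen or fallen where edgeR's quasi-likelihood test, fitted on the 4 libraries of 2 groups over all genes tested, gave a Benjamini-Hochberg adjusted p below 0.05. Fold changes are on the log2 scale, with the first-named group over the second. The positions given are those of GENCODE M21 (build GRCm38). Because the replicate number names the lane, values with that number as a block are given where they change a call. Comparisons of AGE+LPS and FruArg+LPS with LPS share both LPS libraries with the comparison of LPS with control, so their values are set side by side and are not independent of each other.

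The labels were first checked on genes outside the pathway. Nos2, the inducible nitric oxide synthase, stood at 2.18 and 0.655 CPM in the control libraries, 758 and 808 CPM in LPS, 133 and 123 CPM in AGE+LPS and 146 and 324 CPM in FruArg+LPS. The control libraries lay far below the other 6. Nos2 rose with LPS (log2 fold change 9.54, SE 0.43, adjusted p = 2.7e-06 by edgeR) and fell in AGE+LPS against LPS (log2 fold change -2.61, SE 0.21, adjusted p = 0.036 by edgeR), and it had -1.73 (SE 0.36, adjusted p = 0.19 by edgeR), or -1.83 (SE 0.20, adjusted p = 7.7e-11 by edgeR with the replicate block), in FruArg+LPS against LPS. Il1b, the cytokine interleukin-1 beta, stood at 1.56 and 2.43 CPM in the control libraries, 572 and 576 CPM in LPS, 1739.6 and 1593 CPM in AGE+LPS and 1051 and 1804 CPM in FruArg+LPS. It rose with LPS (log2 fold change 8.08, SE 0.31, adjusted p = 2.1e-06 by edgeR) and, unlike Nos2, rose again in AGE+LPS against LPS (log2 fold change 1.54, SE 0.21, adjusted p = 0.041 by edgeR), with 1.32 (SE 0.30, adjusted p = 0.21 by edgeR), or 1.27 (SE 0.20, adjusted p = 2.4e-06 by edgeR with the replicate block), in FruArg+LPS.

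Tnf, the cytokine tumour necrosis factor, stood at 17.1 and 34.8 CPM in the control libraries, 314 and 372 CPM in LPS, 395 and 443 CPM in AGE+LPS and 566 and 587 CPM in FruArg+LPS. The control libraries were the lowest and the FruArg+LPS libraries the highest, and Tnf rose with LPS (log2 fold change 3.71, SE 0.32, adjusted p = 6.2e-05 by edgeR). Against LPS it had 0.29 (SE 0.21, adjusted p = 0.53 by edgeR), or 0.29 (SE 0.10, adjusted p = 0.0096 by edgeR with the replicate block), in AGE+LPS and 0.76 (SE 0.24, adjusted p = 0.29 by edgeR), or 0.76 (SE 0.18, adjusted p = 0.0017 by edgeR with the replicate block), in FruArg+LPS. Of 13 markers of microglia and macrophages, 1 (Sall1) was listed at 0 in every library and Tmem119 was at most 1.38 CPM, so these defining markers of brain microglia were at 0 or low. P2ry12, another of them, was low, at 6.22 and 9.27 CPM in control and 1.62 and 1.65 CPM in LPS. The most abundant marker was Ptprc, and Csf1r was read at 362 and 403 CPM in the control libraries. Summed over the 13 markers, levels were 3464 and 4191 CPM in control, 2797 and 3096 CPM in LPS, 2533 and 2861 CPM in AGE+LPS, and 3459 and 3371 CPM in FruArg+LPS. This sum was lower in each of the 6 libraries with LPS than in either control library, by the least in FruArg+LPS, and its part in the results was not tested. Markers of astrocytes, oligodendrocytes, neurons, and fibroblasts with endothelium summed to at most 2.57 CPM for any list in any library. The most abundant gene of these lists was Slc1a2, at a mean of 1.07 CPM.

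Cells make sterols from acetyl units through mevalonate and squalene, and they make fatty acids by chain building, elongation and desaturation of the same units. The genes of both arms are targets of the SREBP transcription factors, of which SREBP-2 (Srebf2) favours the sterol arm and SREBP-1 (Srebf1) the fatty acid arm. SCAP carries SREBPs to the Golgi for cleavage, and the INSIG proteins hold SCAP back in the endoplasmic reticulum when sterols are plentiful. In macrophages and microglia these routes supply membrane lipid, and oxysterols and fatty acids made from them feed back on gene expression.

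The members differed widely in level. Per kilobase of exon, the highest mean in control cells was that of Scd2, a stearoyl-CoA desaturase, at 223 CPM per kb. Pmvk (phosphomevalonate kinase) had 68.9 CPM per kb, Insig1 49.6 CPM per kb and Fads1 33.7 CPM per kb. At the other end, Scd1 had 0.201 CPM per kb and Idi1 (isopentenyl diphosphate isomerase) 0.836 CPM per kb. Fads2, the delta-6 desaturase (ENSMUSG00000024665, chromosome 19, 10062765 to 10101746), was listed at 0 in all 8 libraries and was tested in no comparison. Scd1 had 3 and 11 counts in control, 3 and 4 in LPS, 42 and 10 in AGE+LPS, and 0 and 7 in FruArg+LPS, and passed the filter on low counts for AGE+LPS with LPS only. Scd1 and Scd2 are closely related copies, so reads of Scd1 at this depth are uncertain. Exon bases shared with another gene made up 26.7% of Fdps (with Gm43738), 18.3% of Fdft1 (with Ctsb on the opposite strand), 13.2% of Scap, 12.1% of Hmgcs1 and 12.1% of Tm7sf2 (with Vps51). The other gene lies on the same strand for Fdps and Tm7sf2, so their shared reads cannot be told apart by strand. It lies on the opposite strand for Fdft1, Scap and Hmgcs1, and the strand setting of the counting is not given in the sources used here.

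The comparison of LPS with control cells asks how activation alone altered these genes. Most fatty acid arm genes tested fell with LPS, while most sterol arm genes did not pass the test without the replicate block. With the block, 5 sterol arm genes rose, 5 fell and 7 did not pass, where 24.9% and 22.9% of all genes rose and fell. Of the 9 fatty acid arm genes tested between LPS and control cells, 6 fell (Fasn, Elovl6, Fads1, Elovl5, Acaca and Scd2) and 1 rose (Acss2). Of the 17 sterol arm genes, 2 fell (Tm7sf2 and Dhcr7), 1 rose (Sc5d) and 14 did not pass the test. Of the 6 regulators, 1 rose (Insig2). In all, 3 of the 32 members tested rose, where 16.3% of all 12888 genes tested rose, and 8 fell, where 14.3% of all genes fell. The members that rose were thus 9.38% and those that fell 25.0% of the members tested.

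The median log2 fold change was -0.87 over the fatty acid arm and -0.01 over the sterol arm, beside 0.02 over all genes tested. Within lane 3 these medians were -0.80 and 0.10, and within lane 6 they were -0.97 and -0.06. Without Acly, Acss2 and Aacs, which supply acetyl units to both arms, the median of the fatty acid arm was -1.38, with all 6 genes tested below 0. The 3 genes left out were the 3 of the arm with values above 0, so this shift follows from leaving them out. Scaling by library size alone moved the median of all genes to -0.40, that of the fatty acid arm to -1.29 and that of the sterol arm to -0.43, so that both arms are best read against the median of all genes. Under that scaling 2 members rose and 12 fell, where 9.59% and 28.7% of all genes did. With the replicate block, 9 members rose and 11 fell, where 24.9% and 22.9% of all genes did. Without control replicate 1, 2 members rose and 4 fell (10.3% and 9.10% of all genes). Without control replicate 2 these were 2 and 5 (9.79% and 8.80% of all genes), and without LPS replicate 2 they were 8 and 5 (17.5% and 14.5% of all genes).

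Fasn, the fatty acid synthase that builds palmitate (ENSMUSG00000025153, chromosome 11, 120805846 to 120824547), stood at 133 and 112 CPM in the control libraries, 34.2 and 26.7 CPM in LPS, 117 and 84.1 CPM in AGE+LPS and 72.7 and 62.2 CPM in FruArg+LPS. The LPS libraries were the lowest of the 8, the control libraries did not overlap with them, and the FruArg+LPS libraries lay between LPS and AGE+LPS. Between LPS and control the log2 fold change was -1.98 (SE 0.23, adjusted p = 2.4e-04 by edgeR), -1.95 within lane 3 and -2.06 within lane 6. Elovl6, which lengthens palmitate to stearate (ENSMUSG00000041220, chromosome 3, 129532355 to 129638495), stood at 19.3 and 14.2 CPM in the control libraries, 1.62 and 2.67 CPM in LPS, 12.7 and 17.6 CPM in AGE+LPS and 6.42 and 2.85 CPM in FruArg+LPS. Control and AGE+LPS libraries overlapped, and the lowest values were those of LPS. With LPS, Elovl6 changed by -2.88 (SE 0.38, adjusted p = 5.5e-04 by edgeR), -3.34 within lane 3 and -2.28 within lane 6.

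Fads1, the delta-5 desaturase of polyunsaturated fatty acids (ENSMUSG00000010663, chromosome 19, 10182888 to 10196877), stood at 150.2 and 174 CPM in the control libraries, 51.9 and 63.97 CPM in LPS, 153 and 169 CPM in AGE+LPS and 129.5 and 117 CPM in FruArg+LPS. Control and AGE+LPS libraries overlapped, LPS libraries were the lowest, and FruArg+LPS libraries lay between. Fads1 changed by -1.45 (SE 0.21, adjusted p = 9.1e-04 by edgeR) with LPS. Elovl5, an elongase of polyunsaturated fatty acids (ENSMUSG00000032349, chromosome 9, 77917364 to 77984519), stood at 106 and 131 CPM in the control libraries, 43.1 and 50 CPM in LPS, 57.3 and 77.1 CPM in AGE+LPS and 82.5 and 48.7 CPM in FruArg+LPS. It changed by -1.31 (SE 0.21, adjusted p = 0.0016 by edgeR), and its control libraries were above all other libraries. The calls of Fasn, Elovl6, Fads1 and Elovl5 held in all 4 fits that omit a library.

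Scd2, a stearoyl-CoA desaturase (ENSMUSG00000025203, chromosome 19, 44293674 to 44306864), stood at 1075 and 1362 CPM in the control libraries, 705 and 699.6 CPM in LPS, 914 and 1212 CPM in AGE+LPS and 1064 and 1063 CPM in FruArg+LPS. The LPS libraries were the lowest, and the AGE+LPS libraries overlapped with control and with FruArg+LPS. Scd2 fell with LPS, with a log2 change of -0.76 (SE 0.23, adjusted p = 0.031 by edgeR). Acaca, the acetyl-CoA carboxylase that makes malonyl-CoA (ENSMUSG00000020532, chromosome 11, 84129672 to 84401651), stood at 21.2 and 20.9 CPM in the control libraries, 12 and 10.5 CPM in LPS, 14.8 and 21.4 CPM in AGE+LPS and 14.2 and 13.3 CPM in FruArg+LPS. The LPS libraries were again the lowest, and Acaca changed by -0.87 (SE 0.26, adjusted p = 0.031 by edgeR). Neither call held with each library left out, since the adjusted p of Scd2 was as high as 0.30 without 1 of control replicate 1, control replicate 2 or LPS replicate 1, and that of Acaca as high as 0.17 without 1 of control replicate 1, control replicate 2 or LPS replicate 2. DESeq2 did not call Acaca (adjusted p = 0.060).

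Acss2, which makes acetyl-CoA from acetate (ENSMUSG00000027605, chromosome 2, 155517948 to 155585724), moved the other way. It stood at 11.8 and 15.1 CPM in the control libraries, 63.6 and 70.95 CPM in LPS, 31.7 and 44.4 CPM in AGE+LPS and 44.5 and 68.1 CPM in FruArg+LPS. The control libraries were the lowest, and LPS and FruArg+LPS libraries overlapped. Acss2 rose with LPS with a log2 change of 2.33 (SE 0.24, adjusted p = 1.3e-04 by edgeR), 2.41 within lane 3 and 2.22 within lane 6. Acly, which makes acetyl-CoA from citrate, had 167 and 153 CPM in control and 264 and 203 CPM in LPS and passed the test with the replicate block only, with 0.57 (SE 0.15, adjusted p = 0.0023 by edgeR with the replicate block). Aacs, which activates acetoacetate, had 46.7 and 46.1 CPM in control and 72.2 and 43.4 CPM in LPS and did not pass it.

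**Figure D1:**
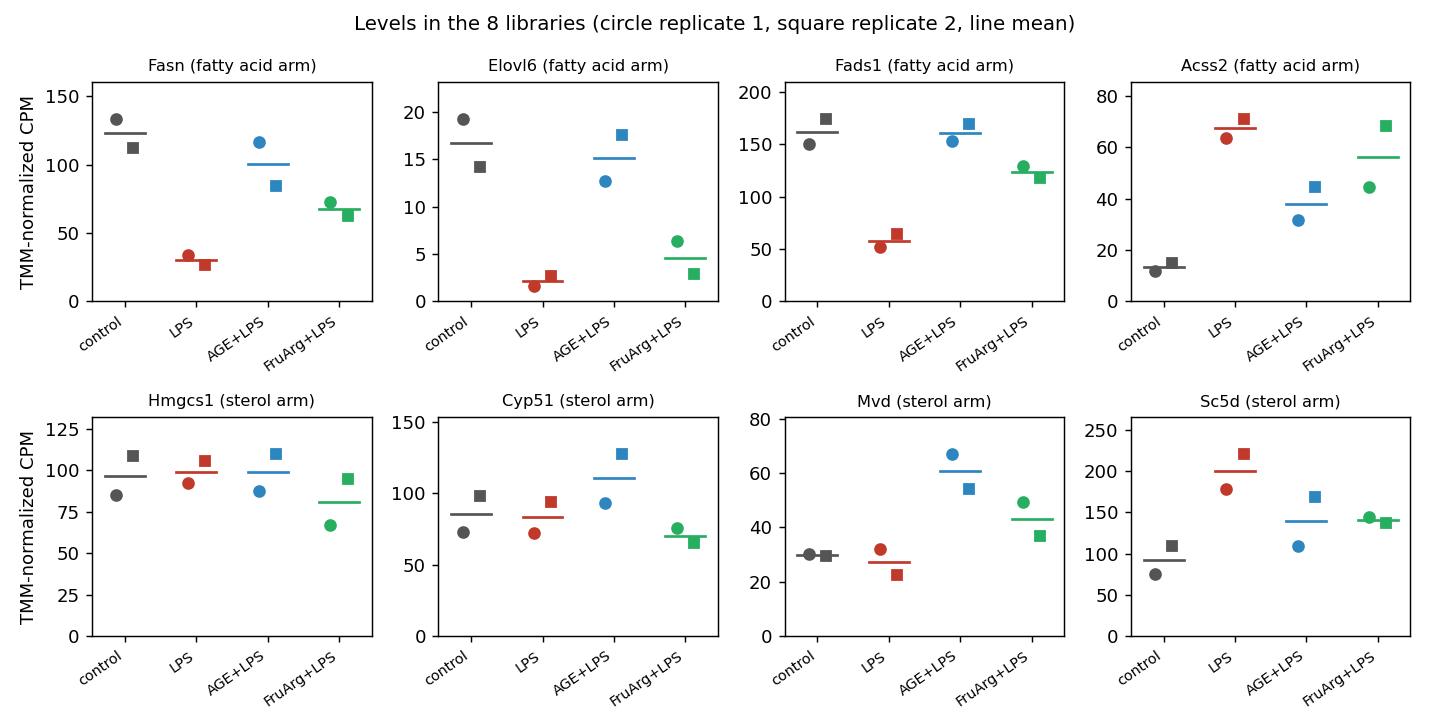
TMM-normalized CPM of 4 fatty acid arm genes (top) and 4 sterol arm genes (bottom) in each of the 8 libraries, by group, with circles for replicate 1, squares for replicate 2 and a line at the mean of 2 libraries. Fasn, Elovl6 and Fads1 are lowest in the LPS libraries, while the control and LPS libraries of Hmgcs1 and Cyp51 overlap.

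The entry and rate-setting steps of the sterol arm did not pass the test with LPS. Hmgcs1, the HMG-CoA synthase of the cytosol (ENSMUSG00000093930, chromosome 13, 119690379 to 119708260), stood at 84.9 and 108 CPM in the control libraries, 92.5 and 106 CPM in LPS, 87.3 and 110.0 CPM in AGE+LPS and 66.7 and 94.5 CPM in FruArg+LPS. All 4 groups overlapped, and the log2 fold change was 0.07 (SE 0.21, adjusted p = 0.83 by edgeR). Sqle, the squalene epoxidase (ENSMUSG00000022351, chromosome 15, 59315077 to 59331192), stood at 81.5 and 97.9 CPM in the control libraries, 113 and 118 CPM in LPS, 109 and 158 CPM in AGE+LPS and 124 and 117 CPM in FruArg+LPS. Both LPS libraries were above both control libraries, and Sqle had a log2 fold change of 0.40 (SE 0.20, adjusted p = 0.17 by edgeR), or 0.40 (SE 0.16, adjusted p = 0.037 by edgeR with the replicate block). Cyp51, the lanosterol demethylase (ENSMUSG00000001467, chromosome 5, 4081145 to 4104746), stood at 72.8 and 97.99 CPM in the control libraries, 72.5 and 94.02 CPM in LPS, 93.4 and 128 CPM in AGE+LPS and 75.4 and 65.4 CPM in FruArg+LPS. Control and LPS libraries overlapped, and the log2 fold change was -0.01 (SE 0.23, adjusted p = 0.99 by edgeR).

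The 3 sterol arm genes that passed the test act late in the route. Sc5d, the lathosterol desaturase (ENSMUSG00000032018, chromosome 9, 42251595 to 42264256), stood at 75.6 and 109.7 CPM in the control libraries, 178 and 221 CPM in LPS, 109 and 169 CPM in AGE+LPS and 144 and 137 CPM in FruArg+LPS. The LPS libraries were the highest, and the AGE+LPS libraries overlapped with control and with FruArg+LPS. Sc5d rose with LPS by 1.14 (SE 0.24, adjusted p = 0.0059 by edgeR) on the log2 scale, but its adjusted p was 0.088 without control replicate 1. Tm7sf2, a sterol C14-reductase (ENSMUSG00000024799, chromosome 19, 6062821 to 6068373), stood at 10.6 and 7.30 CPM in the control libraries, 4.12 and 2.02 CPM in LPS, 6.42 and 3.79 CPM in AGE+LPS and 3.21 and 3.80 CPM in FruArg+LPS. The control libraries were the highest. Tm7sf2 fell with LPS (log2 fold change -1.49, SE 0.45, adjusted p = 0.033 by edgeR), and the call was lost without control replicate 1 or LPS replicate 2 (adjusted p up to 0.12). Dhcr7, the reductase that makes cholesterol from 7-dehydrocholesterol (ENSMUSG00000058454, chromosome 7, 143823145 to 143848410), stood at 12.4 and 14.8 CPM in the control libraries, 7.50 and 7.17 CPM in LPS, 9.56 and 9.24 CPM in AGE+LPS and 15.6 and 12.2 CPM in FruArg+LPS. The LPS libraries were the lowest and Dhcr7 fell (log2 fold change -0.87, SE 0.29, adjusted p = 0.049 by edgeR), although DESeq2 gave an adjusted p of 0.12 and edgeR lost the call in all 4 fits that omit a library, with up to 0.34.

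The other 11 sterol arm genes had log2 fold changes from -0.61 (Mvk, mevalonate kinase) to 0.77 (Fdft1, squalene synthase) between LPS and control. Of the 17 genes of the arm, 5 rose and 5 fell with the replicate block (29.4% each), near the 24.9% and 22.9% of all genes that did. Those that passed only with it were Fdft1 (0.71, adjusted p = 0.011 by edgeR), Lss (0.47, 0.027), Msmo1 (0.44, 0.016), Sqle, Mvk (-0.69, 0.022), Pmvk (-0.45, 0.024) and Ebp (-0.58, 0.025).

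Among the regulators, Insig2, an anchor of SCAP in the endoplasmic reticulum (ENSMUSG00000003721, chromosome 1, 121304353 to 121332589), stood at 76.5 and 58.3 CPM in the control libraries, 125 and 141 CPM in LPS, 171 and 179 CPM in AGE+LPS and 169.9 and 179 CPM in FruArg+LPS. The control libraries were below the other 6 and the LPS libraries lay between control and both co-treatments. Insig2 rose with LPS by 1.02 (SE 0.22, adjusted p = 0.0068 by edgeR) on the log2 scale, with an adjusted p of 0.14 without control replicate 2. It did not pass under library size scaling either, where its log2 fold change was 0.60. Its relative Insig1 (ENSMUSG00000045294, chromosome 5, 28071363 to 28078662), itself an SREBP target, stood at 138 and 169 CPM in the control libraries, 232 and 201 CPM in LPS, 244 and 289 CPM in AGE+LPS and 335 and 266 CPM in FruArg+LPS. The control libraries were again the lowest, and the log2 fold change was 0.53 (SE 0.21, adjusted p = 0.079 by edgeR), or 0.53 (SE 0.16, adjusted p = 0.0056 by edgeR with the replicate block).

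Srebf1 (ENSMUSG00000020538, chromosome 11, 60199089 to 60222581) stood at 134 and 113 CPM in the control libraries, 132 and 83.9 CPM in LPS, 125 and 88.3 CPM in AGE+LPS and 206 and 139 CPM in FruArg+LPS. In each group replicate 1 was above replicate 2, and control and LPS libraries overlapped, with a log2 fold change of -0.16 (SE 0.25, adjusted p = 0.67 by edgeR). Srebf2 (ENSMUSG00000022463, chromosome 15, 82147181 to 82205379) stood at 44.2 and 44.2 CPM in the control libraries, 54.1 and 34.01 CPM in LPS, 69.9 and 46.97 CPM in AGE+LPS and 67.4 and 63.7 CPM in FruArg+LPS. Its control values lay inside the range of the LPS libraries, with a log2 fold change of 0.03 (SE 0.26, adjusted p = 0.95 by edgeR). Scap (0.15) and Stard4, which moves cholesterol between membranes (-0.21), did not pass the test with or without the block. These values are transcript levels, and the cleavage of SREBP proteins was not analysed here.

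AGE with LPS was compared with LPS to ask how the extract altered the response. In AGE+LPS cells, Fasn, Elovl6 and Fads1 rose, the same 3 genes that had the largest decreases in the fatty acid arm with LPS. Both comparisons use the same LPS libraries, so this match is not independent support. The genes that rose were 3 of the 33 members tested (36, or 0.292%, of all 12317 genes tested rose), and 0 members fell (0.503% of all genes fell). Scd1 was tested through its AGE+LPS counts only and could have been tested only with a higher value there, so it is left out of the counts that follow, a choice made after seeing the data. At an unadjusted edgeR p below 0.05 there were 8 members, with Fasn, Elovl6 and Fads1 among them, and 2194 genes in all. DESeq2 called 4 as risen (Mvd beside these 3) and 0 as fallen, where it called 2.05% of all genes as risen and 3.17% as fallen. With the replicate block 18 members rose, where 19.3% of all genes did, and 2 fell, where 21.0% of all genes did. With all groups in one fit and the block, 7 rose (8.44% of all genes) and 2 fell (9.80% of all genes). With LPS replicate 1 omitted 5 rose (2.16% of all genes), and with LPS replicate 2 omitted 3 did (1.25% of all genes). Omitting a library of AGE+LPS gave 3 for replicate 1 (0.974% of all genes) and 4 for replicate 2 (2.16% of all genes). The number was 1 with RLE size factors (0.170% of all genes).

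The median log2 fold change between AGE+LPS and LPS was 0.64 over the 10 fatty acid arm genes tested and 0.36 over the 17 of the sterol arm, beside 0.00 over all genes. It was 0.39 and 0.30 within lane 3 and 0.90 and 0.48 within lane 6. Without Scd1, the median of the fatty acid arm was 0.60 (0.37 within lane 3 and 0.79 within lane 6), and 26 of the other 32 members had a value above 0, where 6155 of all 12317 genes did. Scaling by library size moved the median of all genes to 0.15 and that of the sterol arm to 0.51. Without the 3 genes that supply acetyl units, the fatty acid arm had a median of 1.48, or 1.08 over 6 genes without Scd1. The genes left out include Acss2, the only gene of this arm tested below 0, so a higher median is partly by construction.

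Between AGE+LPS and LPS, Fasn changed by 1.72 (SE 0.26, adjusted p = 0.048 by edgeR), 1.76 within lane 3 and 1.64 within lane 6. Elovl6 changed by 2.79 (SE 0.39, adjusted p = 0.041 by edgeR), 2.75 within lane 3 and 2.58 within lane 6. Fads1 changed by 1.48 (SE 0.21, adjusted p = 0.044 by edgeR), 1.56 within lane 3 and 1.40 within lane 6. In each of the 3 genes both AGE+LPS libraries were above both LPS libraries. Over the 4 fits that omit a library, the log2 fold change was 1.46 to 1.95 (Fasn), 2.50 to 3.20 (Elovl6) and 1.34 to 1.64 (Fads1). Those fits called more genes than the fit of all 4 libraries, so a call kept in them adds no support. With all 4 libraries the adjusted p lay close to the threshold. With RLE size factors Fasn (1.71) and Fads1 (1.47) did not pass while Elovl6 did.

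With Scd1 left out, another 5 genes of this arm passed the edgeR test with the block and not without it. Scd1 had 3.30 (SE 0.82), a value that rests on 3 and 4 counts in the LPS libraries. It could be tested only with a higher value in AGE+LPS, so its p-values give no support and are left out. Scd2 had 0.59 (SE 0.10, adjusted p = 4.8e-07 by edgeR with the replicate block) and Acaca 0.69 (SE 0.19, adjusted p = 0.0018 by edgeR with the replicate block). Elovl5 had 0.53 (SE 0.11, adjusted p = 7.6e-05 by edgeR with the replicate block) and Aacs 0.48 (SE 0.11, adjusted p = 1.7e-04 by edgeR with the replicate block). Acss2 was the gene of this arm with a decrease, -0.83 (SE 0.12, adjusted p = 4.8e-09 by edgeR with the replicate block), or -0.82 (SE 0.24, adjusted p = 0.15 by edgeR) without the block. Both AGE+LPS libraries of Acss2 were below both LPS libraries and above both control libraries. Acly passed with neither (log2 fold change 0.04, SE 0.22, adjusted p = 0.94 by edgeR).

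In the sterol arm 0 genes passed the edgeR test without the block, 3 had an unadjusted p below 0.05 (2194 of all 12317 genes did) and DESeq2 called 1 (Mvd; 2.05% of all genes rose by DESeq2). With the block 8 rose (47.1%) and 1 fell (5.88%), where 19.3% and 21.0% of all genes did. With all groups in one fit and the block, 7 members of any arm rose without Scd1 (8.44% of all genes). These 8 calls therefore cannot all hold in that fit. Mvd, the mevalonate diphosphate decarboxylase (ENSMUSG00000006517, chromosome 8, 122433601 to 122443422), stood at 30.2 and 29.6 CPM in the control libraries, 32.2 and 22.4 CPM in LPS, 67.2 and 54.2 CPM in AGE+LPS and 49.3 and 36.9 CPM in FruArg+LPS. The AGE+LPS libraries were the highest, and control and LPS libraries overlapped. Mvd had 1.16 (SE 0.27, adjusted p = 0.087 by edgeR), or 1.17 (SE 0.13, adjusted p = 9.7e-14 by edgeR with the replicate block), and DESeq2 gave an adjusted p of 0.015. Mvk (ENSMUSG00000041939, chromosome 5, 114444269 to 114460591) stood at 18.97 and 16.7 CPM in the control libraries, 14.7 and 8.09 CPM in LPS, 26.8 and 18.03 CPM in AGE+LPS and 22.7 and 14.3 CPM in FruArg+LPS. Both AGE+LPS libraries were above both LPS libraries, and the log2 fold change was 0.99 (SE 0.37, adjusted p = 0.23 by edgeR), or 1.00 (SE 0.18, adjusted p = 1.9e-06 by edgeR with the replicate block).

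Smaller increases with the block were those of Nsdhl (0.83) and Hsd17b7 (0.56), which act on the way from lanosterol to cholesterol. Fdps, the farnesyl diphosphate synthase, had 0.45, and Pmvk had 0.37. Cyp51 had 0.41 (SE 0.10, adjusted p = 7.5e-04 by edgeR with the replicate block) and Msmo1, the methylsterol oxidase, 0.35. Sc5d, which had risen with LPS, had -0.52 (SE 0.27, adjusted p = 0.37 by edgeR), or -0.54 (SE 0.10, adjusted p = 3.3e-06 by edgeR with the replicate block). Hmgcs1 was at -0.01 (SE 0.22, adjusted p = 0.99 by edgeR) and Sqle at 0.21 (SE 0.24, adjusted p = 0.71 by edgeR), and neither passed with the block.

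None of the 6 regulators passed without the block in AGE+LPS against LPS by edgeR or by DESeq2, and 0 had an unadjusted p below 0.05 by edgeR. With the block Insig2 had 0.40 (SE 0.10, adjusted p = 4.4e-04 by edgeR with the replicate block), Srebf2 0.42 (SE 0.12, adjusted p = 0.0025 by edgeR with the replicate block) and Insig1 0.30 (SE 0.10, adjusted p = 0.0096 by edgeR with the replicate block). Srebf1 had -0.01 (SE 0.29, adjusted p = 0.99 by edgeR), and -0.08 within lane 3 and 0.07 within lane 6.

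FruArg with LPS was compared with LPS to ask what this compound of the extract did by itself. With edgeR, 0 of the 32 members tested rose and 0 fell, as did 0% of all 12071 genes tested in each direction. At an unadjusted p below 0.05 there were 4 members and 1543 genes in all. DESeq2 called 2 members as risen (0.828% of all genes), and 2 were called as risen by edgeR without FruArg+LPS replicate 2 (4.92% of all genes). With the replicate block 8 members rose, where 8.23% of all genes did, and 1 fell, where 9.36% did. The median log2 fold change was 0.50 over the 9 fatty acid arm genes tested and 0.08 over the sterol arm, beside -0.01 over all genes. Without Idi1, which was tested through its LPS counts only, the sterol arm had 0.14, a value added after seeing the data. Within lane 3 the arms had 0.59 and 0.06, and within lane 6 they had 0.39 and 0.04.

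The 2 members called by DESeq2 were Fasn and Fads1. Fasn had 1.15 (SE 0.27, adjusted p = 0.21 by edgeR), or 1.16 (SE 0.19, adjusted p = 5.6e-06 by edgeR with the replicate block), and DESeq2 gave an adjusted p of 0.033. Fads1 had 1.10 (SE 0.24, adjusted p = 0.21 by edgeR), or 1.10 (SE 0.19, adjusted p = 5.7e-06 by edgeR with the replicate block), and DESeq2 gave 0.022. In both genes the FruArg+LPS libraries were above the LPS libraries and below the control libraries. Elovl6 had 1.09 (SE 0.65, adjusted p = 0.48 by edgeR), with 1.80 within lane 3 and 0.09 within lane 6, and did not pass with the block.

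With the block Scd2 had 0.61 (SE 0.19, adjusted p = 0.021 by edgeR with the replicate block), Mvd 0.67 (SE 0.21, adjusted p = 0.019 by edgeR with the replicate block) and Dhcr7 0.91 (SE 0.33, adjusted p = 0.047 by edgeR with the replicate block). The gene that fell was Sc5d, with -0.49 (SE 0.17, adjusted p = 0.036 by edgeR with the replicate block). Acss2 had -0.25 (SE 0.28, adjusted p = 0.71 by edgeR) and Acaca 0.30 (SE 0.34, adjusted p = 0.71 by edgeR), and neither passed with the block. Hmgcs1 (-0.29), Sqle (0.07) and Cyp51 (-0.24) also passed with neither.

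For the regulators, both FruArg+LPS libraries of Srebf1 were above both LPS libraries, with 0.68 (SE 0.30, adjusted p = 0.39 by edgeR), or 0.69 (SE 0.17, adjusted p = 0.0026 by edgeR with the replicate block). Srebf2 had 0.58 (SE 0.29, adjusted p = 0.42 by edgeR), or 0.62 (SE 0.19, adjusted p = 0.018 by edgeR with the replicate block). Insig1 had 0.47 (SE 0.17, adjusted p = 0.049 by edgeR with the replicate block). Insig2 had 0.40 (SE 0.23, adjusted p = 0.46 by edgeR) and did not pass with the block.

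**Figure D2:**
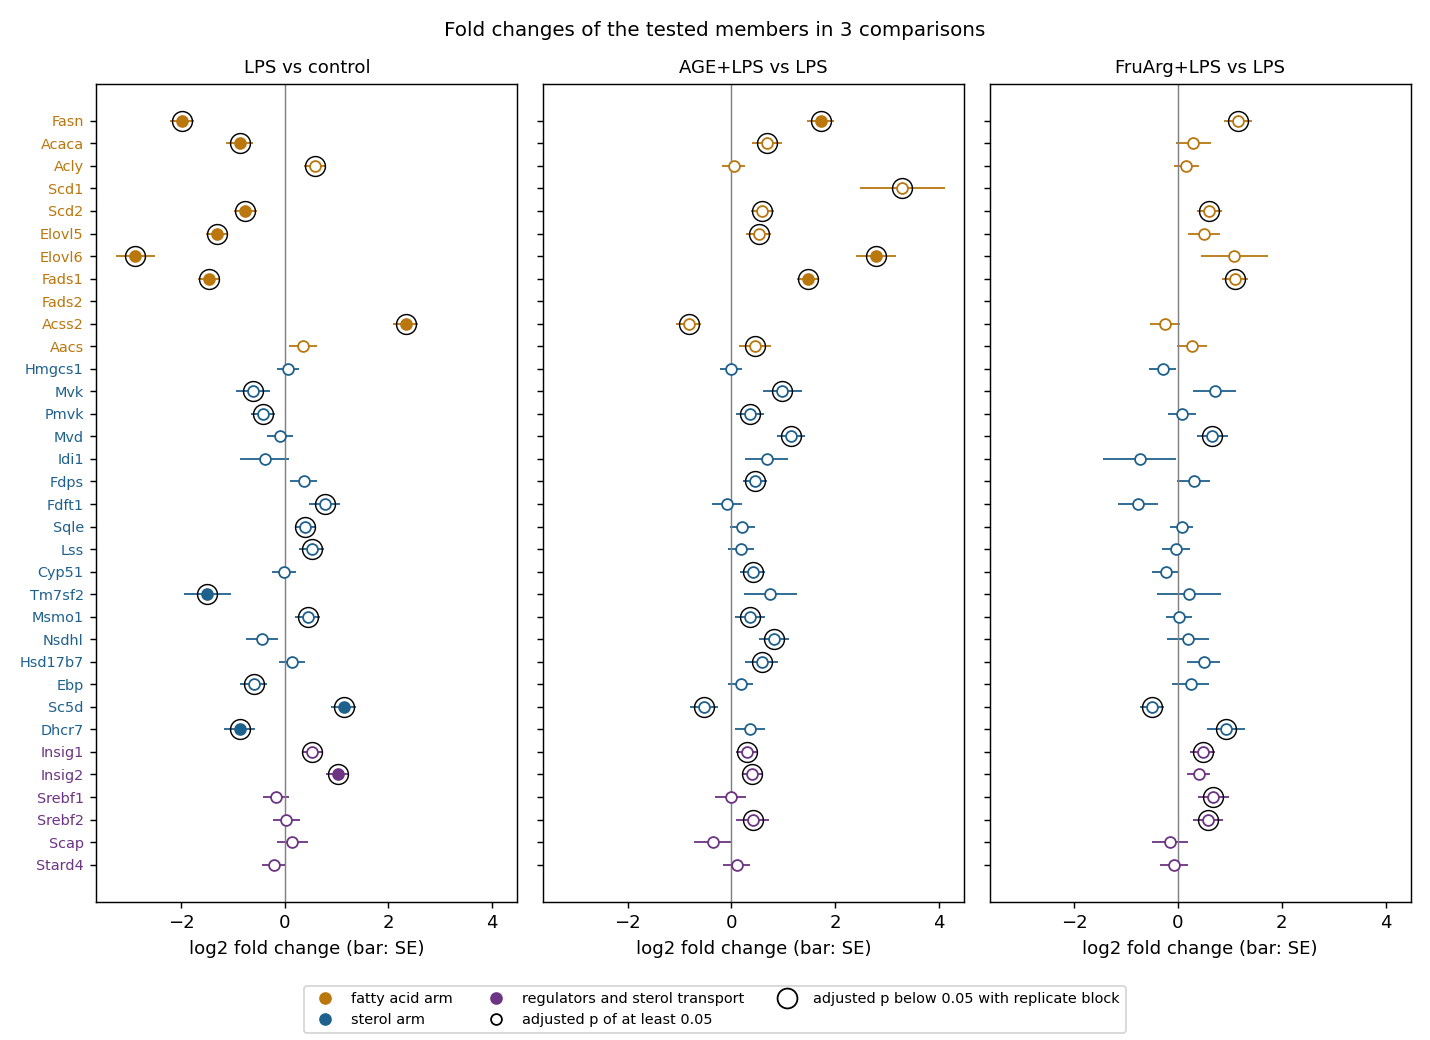
Log2 fold change of each member tested (horizontal axis, the same in the 3 panels) between LPS and control, AGE+LPS and LPS, and FruArg+LPS and LPS, with the SE as a bar and members coloured by arm or as regulators. Filled points passed the edgeR test (adjusted p below 0.05), open points did not, and a ring marks members that passed with the replicate block. The 3 filled points between AGE+LPS and LPS are Fasn, Elovl6 and Fads1, and there are 0 filled points between FruArg+LPS and LPS.

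FruArg+LPS and AGE+LPS were also compared directly. By edgeR 0 of 32 members rose and 0 fell, where 0% of all 11915 genes tested did in each direction. At an unadjusted p below 0.05 there were 3 members and 668 genes in all, and DESeq2 called 0 genes. With the block 1 member rose (2.23% of all genes) and 1 fell (0.965% of all genes). Elovl6 was lower with FruArg, at -1.72 (SE 0.48, adjusted p = 0.84 by edgeR), or -1.75 (SE 0.41, adjusted p = 0.022 by edgeR with the replicate block), and -0.95 within lane 3 and -2.50 within lane 6. Srebf1 was higher, at 0.69 (SE 0.28, adjusted p = 0.84 by edgeR), or 0.68 (SE 0.16, adjusted p = 0.024 by edgeR with the replicate block). The median log2 fold change was -0.29 over the sterol arm and -0.20 over the fatty acid arm, beside -0.02 over all genes. Scaling by library size moved the median of all genes to -0.15 and that of the sterol arm to -0.43. Fasn had -0.58 (SE 0.26, adjusted p = 0.84 by edgeR) and Fads1 -0.39 (SE 0.23, adjusted p = 0.84 by edgeR), and a p that misses the threshold does not show that the co-treatments act alike on them.

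The arms can also be set out library by library, as the median log2 level of their genes relative to the mean of the control libraries. Over 9 fatty acid arm genes, without Scd1, it was -0.79 and -0.98 in LPS, -0.08 and 0.06 in AGE+LPS, and -0.32 and -0.46 in FruArg+LPS. The 3 treated groups did not overlap on this scale. Over the 17 sterol arm genes it was -0.05 and 0.14 in LPS, 0.24 and 0.60 in AGE+LPS, and 0.20 and 0.09 in FruArg+LPS, beside -0.13 and 0.13 in the control libraries. Both AGE+LPS libraries, LPS replicate 2 and FruArg+LPS replicate 1 lay above the control range, with AGE+LPS replicate 2 the highest. For the 6 regulators it was 0.40 and -0.30 in LPS, 0.34 and 0.11 in AGE+LPS, and 0.67 and 0.35 in FruArg+LPS, with the lane 3 library the higher in each of these groups. These medians are descriptions with no test.

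Related genes outside the 34 were read from 4 lists. Of 20 other synthesis genes, 15 were tested between LPS and control, 2 rose (13.3%) and 3 fell (20%), with a median of 0.26. These shares stand beside the 16.3% and 14.3% of all genes that rose and fell. With the block Ggps1, Me1 and Hsd17b12 passed as well, which made 5 that rose (33.3%, beside 24.9% of all genes). Elovl7, an elongase of long saturated and polyunsaturated chains, stood at 26.8 and 26.95 CPM in the control libraries, 3.50 and 4.41 CPM in LPS, 10.4 and 14.7 CPM in AGE+LPS and 8.25 and 10.1 CPM in FruArg+LPS. The LPS libraries were the lowest and Elovl7 fell with LPS (log2 fold change -2.71, SE 0.29, adjusted p = 1.7e-04 by edgeR). Mbtps2, the site-2 protease that releases SREBPs, fell (log2 fold change -1.21, SE 0.33, adjusted p = 0.021 by edgeR, but 0.16 without control replicate 2). Elovl1 fell as well (log2 fold change -0.76, SE 0.23, adjusted p = 0.032 by edgeR), a call lost by DESeq2 and without either control library (adjusted p up to 0.31). Hacd3, a dehydratase of chain elongation, rose (log2 fold change 1.43, SE 0.21, adjusted p = 9.3e-04 by edgeR), as did Acsl5, an acyl-CoA synthetase (log2 fold change 1.29, SE 0.23, adjusted p = 0.0024 by edgeR). Thrsp, Vldlr, Ch25h and Ppara of these lists were listed at 0 in all 8 libraries.

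Of 9 genes of sterol efflux and the liver X receptors, 8 were tested, 1 rose and 1 fell with LPS (12.5% each, beside 16.3% and 14.3% of all genes), with a median of 0.05. Rxra, the partner of these receptors, stood at 171 and 131 CPM in the control libraries, 52.5 and 35.6 CPM in LPS, 72.5 and 56.97 CPM in AGE+LPS and 104 and 65.4 CPM in FruArg+LPS, and it fell (log2 fold change -1.74, SE 0.26, adjusted p = 9.4e-04 by edgeR). Nr1h2, the receptor LXR-beta, rose (log2 fold change 0.86, SE 0.24, adjusted p = 0.022 by edgeR), a call lost under library size scaling (0.44) and without either control library (adjusted p up to 0.24). The cholesterol exporter Abca1 stood at 181 and 187 CPM in the control libraries, 193 and 187 CPM in LPS, 201 and 215 CPM in AGE+LPS and 207 and 299 CPM in FruArg+LPS, with overlap of control and LPS libraries.

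Of 13 genes of sterol uptake, esterification and oxysterols, 11 were tested, 2 rose (18.2%) and 3 fell (27.3%) with LPS, beside 16.3% and 14.3% of all genes, and the median was 0.25. Plin2, a coat protein of lipid droplets, rose with the block only (0.52, adjusted p = 0.0037 by edgeR). Nceh1, a cholesterol ester hydrolase of macrophages (ENSMUSG00000027698, chromosome 3, 27182965 to 27284608), stood at 375 and 319 CPM in the control libraries, 71.4 and 73.2 CPM in LPS, 216 and 245 CPM in AGE+LPS and 109 and 95.1 CPM in FruArg+LPS. The groups did not overlap, with LPS the lowest and FruArg+LPS, AGE+LPS and control above it in that order. Nceh1 fell with LPS (log2 fold change -2.23, SE 0.21, adjusted p = 9.0e-05 by edgeR) and rose in AGE+LPS against LPS (log2 fold change 1.67, SE 0.20, adjusted p = 0.039 by edgeR), where it was the only gene of the 4 lists that passed the edgeR test without the block. Cyp27a1, which makes 27-hydroxycholesterol, fell (log2 fold change -1.44, SE 0.24, adjusted p = 0.0017 by edgeR), as did the lipoprotein receptor Scarb1 (log2 fold change -1.07, SE 0.21, adjusted p = 0.0048 by edgeR). The lysosomal sterol carrier Npc2 rose (log2 fold change 1.24, SE 0.22, adjusted p = 0.0028 by edgeR), as did Stard3, a sterol carrier of late endosomes (log2 fold change 1.40, SE 0.23, adjusted p = 0.0018 by edgeR).

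Of 17 genes of fatty acid oxidation, 16 were tested with LPS, 2 rose (12.5%, beside 16.3% of all genes) and 5 fell (31.2%, beside 14.3% of all genes), and the median was -0.47. With the block 7 fell (43.8%, beside 22.9% of all genes), with Cpt1a and Etfb added. Acaa2, a mitochondrial thiolase, fell (log2 fold change -1.60, SE 0.23, adjusted p = 8.0e-04 by edgeR), as did the dehydrogenases Hadh (log2 fold change -1.22, SE 0.23, adjusted p = 0.0035 by edgeR) and Acadvl (log2 fold change -1.14, SE 0.24, adjusted p = 0.0069 by edgeR). The adjusted p of Hadh was 0.054 without control replicate 2. Ppard, a nuclear receptor of fatty acids, rose (log2 fold change 1.24, SE 0.36, adjusted p = 0.027 by edgeR), a call lost by DESeq2, under library size scaling (0.82) and without either control library (adjusted p up to 0.25).

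For the co-treatments the 4 lists are given by their counts. Between AGE+LPS and LPS, DESeq2 called 3 genes of the lists as risen (Elovl7, Nceh1 and Acadvl) and 3 as fallen (Npc2, Cpt1a and Slc25a20), where it called 2.05% and 3.17% of all genes. Between AGE+LPS and LPS, 7 other synthesis genes rose (46.7%) and 2 fell (13.3%) with the block, where 19.3% and 21.0% of all genes did. For efflux and the liver X receptors 2 rose (25.0%) and 1 fell (12.5%), for uptake, esterification and oxysterols 3 rose (27.3%) and 7 fell (63.6%), and for fatty acid oxidation 4 rose (25.0%) and 3 fell (18.8%). The medians without the block were 0.21, 0.03, -0.36 and -0.02 in this order. Several of these shares are near those of all genes. Between FruArg+LPS and LPS, 0 genes of the 4 lists passed without the block by edgeR, as did 0% of all genes. An unadjusted p below 0.05 was found for 8 (1543 of all 12071 genes), and DESeq2 called 1 as risen (Scarb1, 0.828% of all genes). With the block 2 of the 15 other synthesis genes rose (Elovl7 and Tecr), 3 of 8 of the efflux list (Lpcat3, Rxra and Rxrb), 2 of 11 of the uptake list (Scarb1 and Nceh1) and 4 of 16 of the oxidation list (Acadvl, Acads and Etfb among them), where 8.23% of all genes rose. Of the 4 lists 1 gene fell (Etfdh), where 9.36% of all genes did. Between FruArg+LPS and AGE+LPS, 0 passed without the block by edgeR or DESeq2, and 7 had an unadjusted p below 0.05 (668 of all 11915 genes). With the block Npc2, Lrp1 and Stard3 rose (2.23% of all genes did) and Nceh1 fell, at -1.18 (adjusted p = 0.0013 by edgeR, 0.965% of all genes fell), and 0 genes of the other 3 lists passed.

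Promoter letters were read for the members because some of them moved together. RefSeq sequences on GRCm38.p6 were matched by symbol for 27 of the 34 members; Fads1, Fdft1, Fdps, Scd1, Scd2, Sqle and Stard4 were not matched. The 250 bases before each transcript start were searched on both strands for TCACNCCAC, the core of a sterol regulatory element, and CCAAT, the box of the factor NF-Y that works beside SREBPs. TCACNCCAC was found in 1 of the 27 members (3.70%), beside 1.22% of 27025 genes. CCAAT was found in 21 of 27 members (77.8%), beside 37.5% of the 27025 genes. By arm these were 14 of 14 sterol arm genes, 3 of 8 fatty acid arm genes and 4 of 5 regulators. A gene was counted where any of its windows held the letters, and genes can have several windows. A match describes letters and is not a binding site, and a window without one says nothing about the factor.

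The promoters below are those of Hmgcs1 (the member with TCACNCCAC, chr13:119690101-119690350, plus strand), Mvd (the sterol arm gene with the largest increase in AGE+LPS, chr8:122443423-122443672, minus strand), Fasn (the fatty acid synthase, chr11:120824548-120824797, minus strand) and Insig2 (the regulator that rose with LPS, the 1 of its windows with 0 exon bases, chr1:121332590-121332839, minus strand). Each is printed 5′ to 3′ on the strand of its gene, ends at the base before the transcript start, holds no annotated exon base, and shows TCACNCCAC and CCAAT in capitals, where ATTGG is CCAAT on the other strand.
Hmgcs1: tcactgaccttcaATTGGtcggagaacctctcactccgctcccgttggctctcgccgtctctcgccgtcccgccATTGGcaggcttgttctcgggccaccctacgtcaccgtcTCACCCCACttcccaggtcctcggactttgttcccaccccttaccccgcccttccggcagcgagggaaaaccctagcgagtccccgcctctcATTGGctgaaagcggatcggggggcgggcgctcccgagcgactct
Mvd: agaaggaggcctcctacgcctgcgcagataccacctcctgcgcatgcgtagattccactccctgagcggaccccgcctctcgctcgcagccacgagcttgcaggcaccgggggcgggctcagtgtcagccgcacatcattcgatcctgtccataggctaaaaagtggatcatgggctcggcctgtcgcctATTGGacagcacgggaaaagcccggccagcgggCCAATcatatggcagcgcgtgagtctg
Fasn: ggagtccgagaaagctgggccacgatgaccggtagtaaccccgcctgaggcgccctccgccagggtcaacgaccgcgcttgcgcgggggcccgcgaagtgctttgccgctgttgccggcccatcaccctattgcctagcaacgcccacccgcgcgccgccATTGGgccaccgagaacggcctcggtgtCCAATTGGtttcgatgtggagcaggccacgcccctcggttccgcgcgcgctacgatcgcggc
Insig2: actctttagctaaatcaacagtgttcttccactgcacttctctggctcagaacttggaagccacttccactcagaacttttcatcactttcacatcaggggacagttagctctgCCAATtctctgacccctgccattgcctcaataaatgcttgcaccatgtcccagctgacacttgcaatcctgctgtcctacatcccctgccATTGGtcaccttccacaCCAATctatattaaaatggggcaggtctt
Hmgcs1 had TCACNCCAC 1 time, 137 bases before the start, and CCAAT 3 times. CCAAT was found 2 times in Mvd, 3 times in Fasn, where a pair on opposite strands shares bases, and 3 times in the window of Insig2 shown. Insig2 has 3 windows, of which the other 2 lie mostly in exon bases and hold 0 matches to CCAAT.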

How the data were processed

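The counts were deposited by the authors as whole reads per Ensembl gene with no normalization. By the labels and the methods of the study, single-end poly-A reads were trimmed with fastx_toolkit, mapped to GRCm38 with TopHat2 and counted with featureCounts. Versions, annotation release, strand setting and treatment of multi-mapping reads are not given in the sources used here. Symbols and positions came from GENCODE M21, and promoters from RefSeq.

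Each comparison was fitted on its 4 libraries with edgeR 4.0.16 in R 4.3.3 (filterByExpr, TMM, quasi-likelihood F-test, two-sided), and p-values were adjusted by Benjamini-Hochberg over all genes tested. DESeq2 1.42.0, other scaling and filters, 1 fit of all groups and a replicate block were alternatives. The block was used because deviations of replicates from their group mean correlated between groups, at r = 0.244 to 0.628 over 12873 genes, which are not independent replicates. An exact permutation test of 2 against 2 libraries cannot go below p = 0.333. The code was tested on simulated counts.

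The members and lists were chosen with earlier results of these data known. Values in every library were given for regulators, entry and rate-setting steps, main fatty acid enzymes and, in each comparison, the 3 members with the largest change in each direction among those called with or without the block. From the other lists up to 4 called genes were named, or, with exceptions, all where at most 5 were called. Elovl5, Dhcr7, Mvd, Mvk, Fads1 and Abca1 were given in every library after their values were seen, and so were the levels of Elovl7, Rxra and Nceh1.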

Additional observations from a re-analysis of the deposited data

How the results depend on the processing

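Of the values of single genes under other settings, 442 kept their direction and their side of the threshold, 29 passed it where they had not, 39 no longer passed it, and none reversed. This tally covers only named genes that were called with or without the replicate block. All settings reuse the same libraries, so a reversal was unlikely from the start. The counts and medians that moved were the following. With the replicate block, 9 members rose between LPS and control (24.9% of all genes). Between AGE+LPS and LPS 19 rose and 2 fell (19.3% and 21.0%). Between FruArg+LPS and LPS 8 rose and 1 fell (8.23% and 9.36%), where the median of the sterol arm was 0.11. Between FruArg+LPS and AGE+LPS 1 rose and 1 fell (2.23% and 0.965%). With all groups in one fit and the replicate block, these counts were 6 (22.2% of all genes), then 8 and 2 (8.44% and 9.80%). They were then 8 and 1 (9.28% and 9.97%, sterol arm median 0.10), and 1 and 3 (2.87% and 1.51%). Under this fit the median of the fatty acid arm between LPS and control was -1.13. That median was -1.13 with all groups in one fit, -1.06 with a filter of at least 1 count and -1.29 with library size scaling. Library size scaling also moved the median of the sterol arm to -0.43 (LPS against control), 0.51 (AGE+LPS against LPS) and -0.43 (FruArg+LPS against AGE+LPS). A filter of at least 1 count gave 6 members that rose with AGE+LPS (2.37% of all genes). It gave 2 that rose with FruArg+LPS against LPS (1.10% of all genes), where the sterol arm median was 0.062, or 0.11 with a filter of 10 counts. DESeq2 gave 5 that rose in AGE+LPS (2.05% of all genes) and 2 in FruArg+LPS against LPS (0.828%), and RLE size factors gave 1 in AGE+LPS (0.170%). A threshold of 2-fold left 5 members that fell with LPS, by its construction. Without Acly, Acss2 and Aacs, the median of the fatty acid arm was -1.38 (LPS against control), 1.48 (AGE+LPS against LPS) and 0.85 (FruArg+LPS against LPS), by fewer genes. The genes left out were those above 0 in LPS against control. They included the only gene below 0 in both comparisons of a co-treatment with LPS. Scd1 (AGE+LPS against LPS) and Idi1 (both comparisons of FruArg+LPS with another group) passed the filter through 1 group only. Leaving them out was added after seeing the data and gave medians of 1.08 (fatty acid arm without the 3 genes and Scd1) and 0.14 (sterol arm, FruArg+LPS against LPS). Scd1 is 1 of the genes counted above as risen with AGE+LPS under the block, DESeq2 and the filter of 1 count. For the other changes the cause was not tested.

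Leaving 1 library out at a time leaves a group with 1 library, which is assumed to vary like the other group. Between LPS and control, 2 to 8 members rose and 4 to 8 fell, with medians of -0.094 to 0.21 (sterol arm) and -1.16 to -0.90 (fatty acid arm). Between AGE+LPS and LPS, 3 to 6 rose and 0 fell, with medians of 0.22 to 0.50 and 0.54 to 0.86. Between FruArg+LPS and LPS, 0 to 2 rose and 0 fell, with medians of 0.042 to 0.14 and 0.30 to 0.60. Between FruArg+LPS and AGE+LPS, 0 rose and 0 to 1 fell, with medians of -0.34 to -0.25 and -0.45 to -0.22. With 2 libraries a group and 1 residual degree of freedom under the block, the blocked p-values rest on spread pooled over genes, and the low totals of 1 control library limit what could be detected at a few CPM.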
